A study of Mus musculus with 9 samples.

Results

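RNA from endogenous retroviruses of the ERV1 group was examined copy by copy in mouse embryonic stem cells (ESCs) lacking the maintenance DNA methyltransferase DNMT1. The members were all repeat copies annotated as LTR class and ERV1 family in the authors' table of repeat expression, 688 copies of 38385 listed (1.79%). They carried 85 names, of which 20 had 10 or more listed copies (497 copies in all) and 65 had fewer (191 copies). One further entry whose family was annotated with a question mark was not counted. Each of 9 poly(A) RNA-seq libraries stood for 1 combination of line and day. The lines were wild type J1 ESCs (WT), Dnmt1-/- ESCs (1KO), and 1KO ESCs carrying a transgene for DNMT1 with an inactive catalytic centre, driven by the ubiquitous CAG promoter (1KO+1CI). Several clones were established with that transgene, and the deposited columns of this line carry the label CI6, which the sources used here do not explain. Day 0 cells had been grown on mitomycin-treated fibroblast feeders, and day 2 and day 4 cells had been differentiated without LIF through embryoid bodies after the feeders were depleted on gelatin. All groups shared the serum culture and the J1 background.

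ERV1 elements descend from gammaretroviruses, the group of murine leukemia virus. A complete copy has an internal part coding for viral proteins between a pair of long terminal repeats (LTRs), and the LTR holds the promoter. Names that end in -int denote internal parts and the other names denote LTRs. In ESCs such copies are silenced mainly by KRAB zinc finger proteins, which bring TRIM28 and the histone methyltransferase SETDB1 to the DNA, and in differentiated cells also by DNA methylation, which DNMT1 copies to the new strand at replication.

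Levels are given in FPKM, reads per 1000 bases of the copy scaled to library size, and differences as log2(FPKM + 0.1). A copy was called higher or lower when 2 libraries differed at least 2-fold on that scale. With 1 library per condition there was no replicate check, and no test was run between conditions. The depth recovered from the FPKM values was 20400000 to 28100000 counted reads per library, with the 1KO day 0 library the deepest. FPKM values of 636 ERV1 copies (92.4%) could be turned back into whole reads, and 185 of these copies had a single read in at least 1 library, so that 2-fold differences of the lowest copies lie within counting error. The intervals given are 95% binomial (Clopper-Pearson) and cover counting error only. No listed copy had a value of 0 in any library, so copies silent in 1 line were not analysed here, and reads shared between near-identical copies may have been split among them. Dnmt1 itself measured 74.0, 80.4 and 48.5 FPKM in WT at days 0, 2 and 4, 13.7, 17.4 and 12.3 in 1KO, and 315, 129 and 158 in 1KO+1CI. The day 0 libraries expressed the ESC markers Pou5f1 at 632 to 808 FPKM and Nanog at 163 to 232 FPKM.

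More ERV1 copies were higher in 1KO than in WT at each later day of differentiation. At day 0, 86 copies (12.5%) were at least 2-fold higher in 1KO, where 11.4% of all listed repeat copies were, and 98 (14.2%) were at least 2-fold lower, where 19.1% of all listed copies were. The balance at day 0 depended on the processing, with 31 higher and 15 lower at a pseudocount of 1 FPKM and 118 higher and 83 lower when libraries were scaled over all listed repeat copies. At day 2 the counts were 131 higher (19.0%, against 13.9% of all listed copies) and 71 lower (10.3%, against 13.9%). At day 4 they were 190 higher (27.6%, against 17.2%) and 56 lower (8.14%, against 12.2%). The median difference over all ERV1 copies was 0.03, 0.13 and 0.27 on the log2 scale at the 3 days, and over all listed copies -0.18, -0.07 and -0.01. Within the wider LTR class, 18.7%, 19.9% and 24.8% of the 7707 copies were at least 2-fold higher in 1KO at days 0, 2 and 4, so the ERV1 share was below that of the class at day 0 and above it at day 4. In 68 ERV1 copies (9.88%, against 5.04% of all listed copies) the 3 libraries of 1KO lay all above the 3 of WT, and in 16 (2.33%, against 5.34%) all below. Over the LTR class these shares were 12.0% and 4.19%, so the ERV1 share above WT was below that of the class. At all 3 days, 33 copies (4.80%, against 2.07%) were at least 2-fold higher in 1KO and 2 (0.291%, against 0.677%) at least 2-fold lower. In the LTR class 7.93% were higher and 0.610% lower by that rule.

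**Figure D1:**
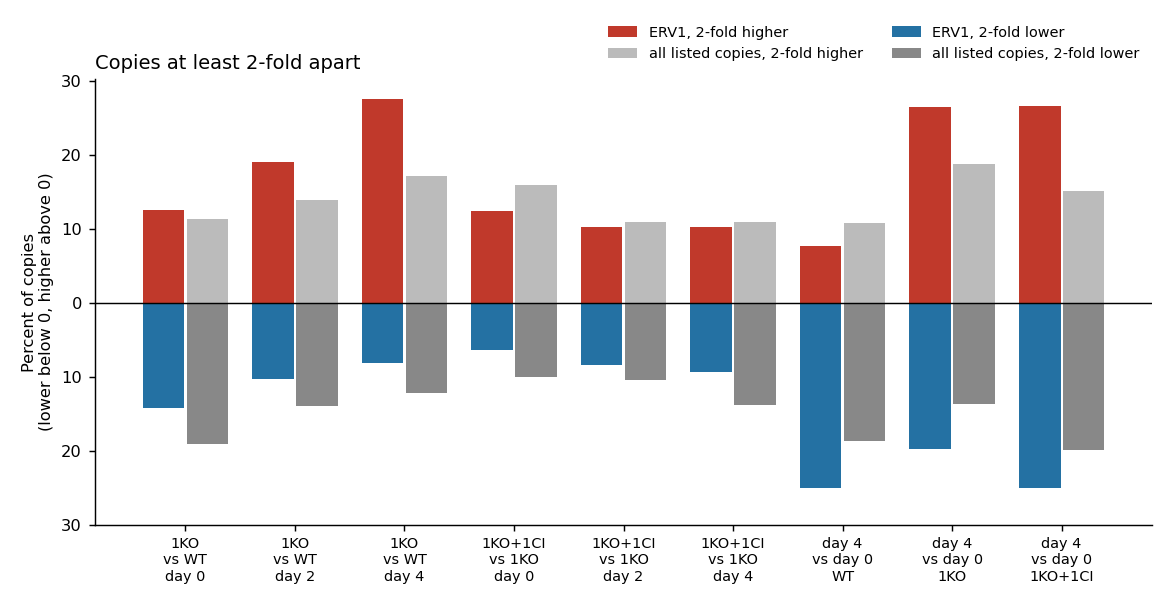
Percent of copies at least 2-fold higher (above 0) or lower (below 0) for 9 comparisons of single libraries, over 688 ERV1 copies (coloured bars) and 38385 listed repeat copies (grey bars). The share of ERV1 copies higher in 1KO than in WT was 12.5% at day 0 and 27.6% at day 4, and that of all copies 11.4% and 17.2%.

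Internal parts and LTRs were both involved at day 4, when 86 of 270 internal copies (31.9%) and 104 of 418 LTR copies (24.9%) were at least 2-fold higher in 1KO than in WT. A large part of the higher copies came from a pair of names, which were picked because they had the largest differences in this same comparison. RLTR1B-int and LTRIS2, with 100 copies between them, held 83 of the 190 higher copies at day 4. Among the other 588 ERV1 copies, 107 (18.2%) were higher and 55 (9.35%) lower, beside 17.2% and 12.2% of all listed copies. Leaving out the highest names lowers the share by construction, so no conclusion is drawn from the remainder. It still held MMERGLN-int and MMERGLN_LTR, of which 23 of 47 copies (48.9%) were at least 2-fold higher. At day 0 the other 588 copies had 52 higher (8.84%) and 91 lower (15.5%), against 11.4% and 19.1% of all listed copies.

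By the mean over its copies, no name with 10 or more copies differed 2-fold between 1KO and WT at day 0 or day 2, and at day 4 only LTRIS2 and RLTR1B-int of the 20 did. By whole reads, which leave out copies whose reads were not recovered, RLTR1B-int passed 2-fold at both earlier days, with ratios of 2.14 (1.97 to 2.33) at day 0 and 2.85 (2.68 to 3.03) at day 2, and MMERGLN-int did at day 2, with 2.09 (1.94 to 2.26). The copies left out include RLTR1B-int dup15 and MMERGLN-int dup17, which had the highest means of their names. Of the 20 names, a higher mean in 1KO was seen for 13 at day 0, for 13 at day 2 and for 14 at day 4. The remaining 18 names at day 4 lay between -0.54 (RLTR4_MM-int) and 0.97 (MMERGLN_LTR) on the log2 scale.

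**Figure D2:**
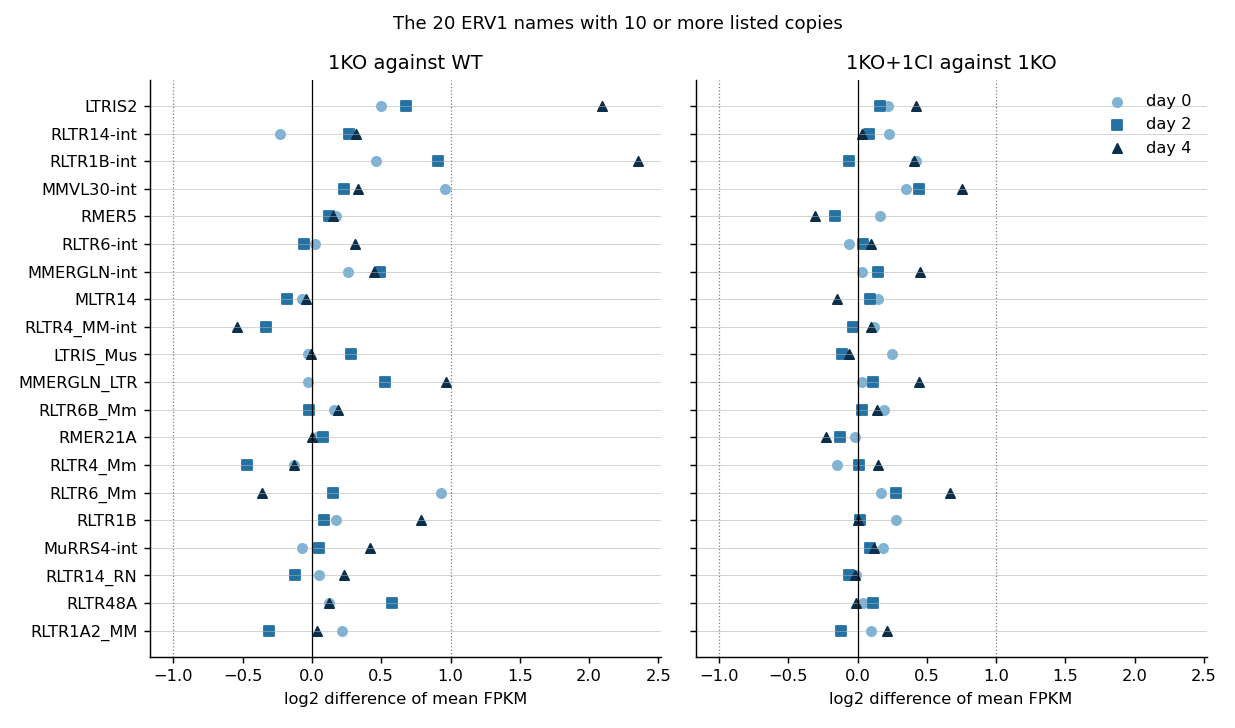
Difference in mean FPKM (log2 of FPKM + 0.1) of the 20 ERV1 names with 10 or more listed copies, 1KO against WT on the left and 1KO+1CI against 1KO on the right, 1 point for each day, with dotted lines at 2-fold. RLTR1B-int (2.35) and LTRIS2 (2.09) lie past the dotted line at day 4 on the left, and no name does on the right.

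RLTR1B-int, the internal part of an RLTR1-type element, had the largest difference between 1KO and WT among the 20 names. Its mean over 49 listed copies was 5.12, 7.57 and 6.65 FPKM in WT at days 0, 2 and 4, 7.10, 14.3 and 34.3 FPKM in 1KO, and 9.57, 13.7 and 45.6 FPKM in 1KO+1CI. The WT libraries stayed within a narrow range, while both DNMT1-mutant lines were above WT at each day and far above it at day 4. At day 4 the 1KO mean was 5.10-fold that of WT. Over the 32 copies with whole reads, 6880 reads in 1KO stood against 956 in WT, a depth-corrected ratio of 6.64 (6.20 to 7.11). All 49 copies were higher in 1KO than in WT at day 4 (49.7% of all listed copies were), 43 of them at least 2-fold (17.2% of all listed copies). Between day 0 and day 4, 42 copies were at least 2-fold higher in 1KO and 41 in 1KO+1CI, but only 4 in WT, where 5 were lower. All listed copies had 18.8%, 15.1% and 10.8% higher in the same 3 comparisons.

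LTRIS2 is an LTR type of the murine retrovirus-related sequences (MuRRS). Its mean over 51 listed copies was 1.63, 2.36 and 2.01 FPKM in WT, 2.35, 3.84 and 8.93 in 1KO, and 2.75, 4.29 and 12.0 in 1KO+1CI at days 0, 2 and 4. The order of the 9 libraries thus followed that of RLTR1B-int except that 1KO and 1KO+1CI changed places at day 2. At day 4, 40 copies were at least 2-fold higher in 1KO than in WT and 1 was lower (17.2% and 12.2% of all listed copies). The read ratio over 50 copies was 4.84 (4.51 to 5.20). The LTR that shares its name with the internal part, RLTR1B, differed less. Its 12 listed copies had means of 1.30, 2.30 and 0.875 FPKM in WT and 1.47, 2.46 and 1.58 in 1KO, 0.79 on the log2 scale at day 4. MuRRS4-int, an internal part of the MuRRS group, had a mean of 0.620 FPKM in WT and 0.861 in 1KO at day 4, with a read ratio of 1.51 (1.14 to 2.01). Which LTR copies neighbour which internal parts was not analysed here.

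The day 4 libraries of both mutant lines also held more RNA of primitive streak markers. Their summed level over the 4 listed of 5 genes (T, Eomes, Mixl1 and Wnt3, with Mesp1 not listed) was 3.60, 4.31 and 14.5 FPKM in WT, 4.21, 4.92 and 74.1 in 1KO, and 2.79, 4.23 and 87.1 in 1KO+1CI. At day 2 these markers were within 4.23 to 4.92 FPKM in all lines. The 5 listed epiblast markers (Fgf5, Otx2, Pou3f1, Dnmt3b and Sox3) then summed to 173 FPKM in WT but 357 in 1KO and 379 in 1KO+1CI. Of these 5, 3 were at least 2-fold higher in 1KO than in WT, where 5.58% of all genes were. At the same day 27 of 49 RLTR1B-int copies were at least 2-fold higher in 1KO and none was lower (13.9% and 13.9% of all listed copies). Of the 7 ESC markers, 2 were at least 2-fold higher in 1KO than in WT at day 4 (Nanog by 1.59 and Esrrb by 1.24 on the log2 scale). Zfp42 was at least 2-fold lower (-1.18). Of all genes, 4.96% were higher and 2.74% lower by that rule. Tfcp2l1 (0.64), Klf4 (0.65), Pou5f1 (-0.44) and Sox2 (-0.50) differed less than 2-fold, so that 4 of the 7 were higher in 1KO. Primitive endoderm markers (7 of 7 genes listed) had a summed level of 25.9 FPKM in WT at day 4, while 1KO had 37.8 and 1KO+1CI 66.9. Most of each sum was Col4a1, with 19.3, 24.5 and 46.7 FPKM. In 1KO, 6 of the 7 were higher than in WT, 3 of them at least 2-fold (4.96% of all genes were). Gata4 was lower, with 0.960 FPKM in 1KO and 1.56 in WT. The part of cells expressing any of these markers in the differences of RLTR1B-int and LTRIS2 was not tested.

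**Figure D3:**
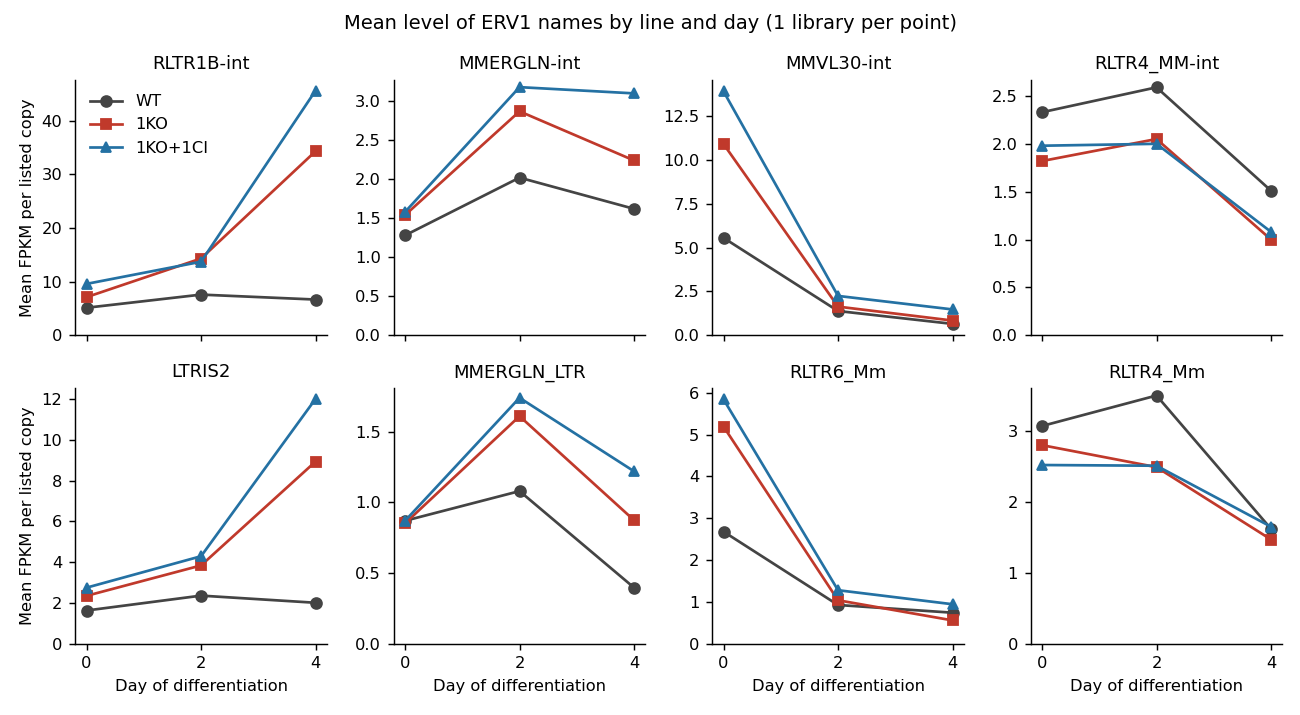
Mean FPKM per listed copy of 8 ERV1 names at days 0, 2 and 4 in WT (grey circles), 1KO (red squares) and 1KO+1CI (blue triangles), 1 library per point, each axis starting at 0. RLTR1B-int and LTRIS2 reached 34.3 and 8.93 FPKM in 1KO at day 4, where WT had 6.65 and 2.01.

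Single copies of RLTR1B-int differed in their pattern at day 0. The copy with the highest mean, RLTR1B-int dup15, measured 68.6, 83.9 and 88.4 FPKM in WT, 24.6, 47.4 and 291 in 1KO, and 26.9, 28.7 and 339 in 1KO+1CI. It was lower in both mutant lines than in WT at days 0 and 2 and higher in both at day 4. RLTR1B-int dup28 measured 4.77, 11.8 and 7.88 FPKM in WT, 52.6, 102 and 225 in 1KO, and 84.0, 127 and 340 in 1KO+1CI, so its mutant libraries all lay above its WT libraries. RLTR1B-int dup1 had its highest mutant levels before day 4, with 1.16, 4.63 and 0.269 FPKM in WT, 23.5, 40.8 and 11.8 in 1KO, and 35.0, 33.7 and 16.5 in 1KO+1CI. In all, 18 of the 49 copies (36.7%, against 57.9% of all listed copies) were lower in 1KO at day 0 and 31 (63.3%, against 42.1%) were higher. The 18 summed to 181 FPKM in WT and 97.1 in 1KO at day 0, and to 240 and 794 at day 4. The 31 summed to 69.5 and 251 at day 0, and to 85.7 and 887 at day 4. Copies on both sides at day 0 were thus higher in 1KO at day 4, with medians of 1.69 and 3.21 on the log2 scale. Without dup15 the difference of the name was 0.81 at day 0 in place of 0.46.

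LTRIS2 showed the same split with smaller differences. Of its 51 copies, 18 were lower in 1KO at day 0, and 14 of these were at least 2-fold higher at day 4, as were 26 of the 33 that were higher at day 0. Of all listed copies, 17.2% were at least 2-fold higher at day 4. Its most abundant copy, LTRIS2 dup6, measured 4.88, 8.92 and 7.58 FPKM in WT, 14.6, 21.7 and 45.9 in 1KO, and 17.4, 27.1 and 79.2 in 1KO+1CI. In LTRIS2 dup33 the WT libraries were near silence, with 0.409, 0.346 and 0.201 FPKM, and the mutant libraries held 2.18, 3.50 and 9.73 in 1KO and 2.21, 2.46 and 9.84 in 1KO+1CI. At day 4 that was 105 reads in 1KO and 2 in WT, a ratio of 48.4 with an interval from 13.1 to 405. In 20 RLTR1B-int copies (40.8%) and 17 LTRIS2 copies (33.3%) all 3 libraries of 1KO lay above all 3 of WT, against 5.04% of all listed copies. The difference was at least 2-fold at all 3 days in 19 RLTR1B-int copies (38.8%) and 10 LTRIS2 copies (19.6%), against 2.07% of all listed copies. Together they were 29 of the 33 ERV1 copies that passed it.

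**Figure D4:**
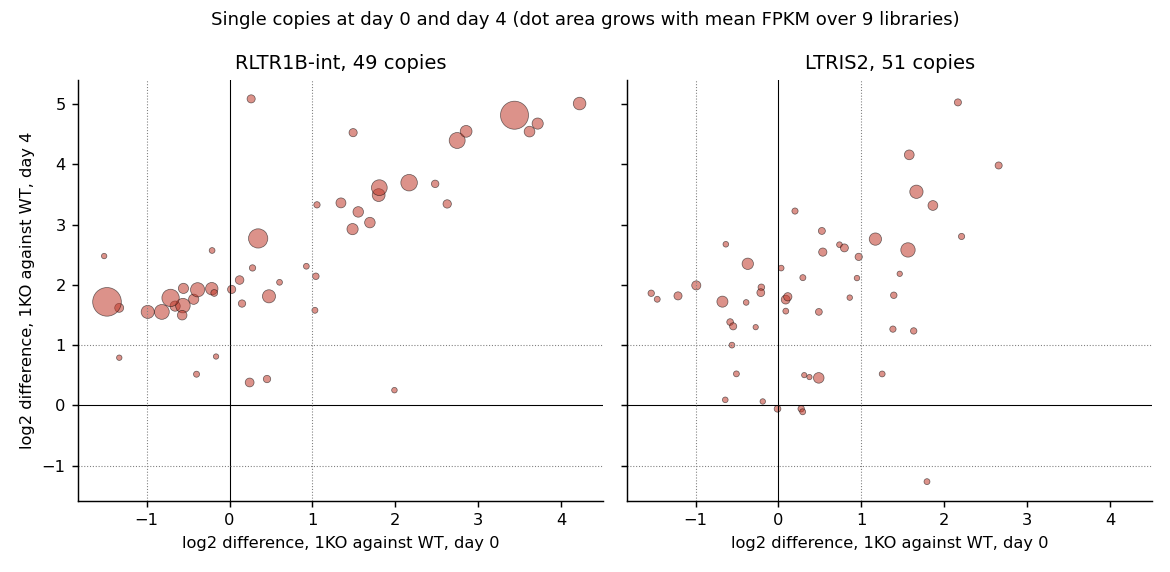
Log2 difference between 1KO and WT at day 0 (horizontal) and day 4 (vertical) for each listed copy of RLTR1B-int and LTRIS2, with dot area growing with mean FPKM and dotted lines at 2-fold. Every RLTR1B-int copy lies above 0 at day 4, including the 18 that lie left of 0 at day 0, the largest of which is dup15 at -1.48 and 1.72.

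The copies furthest apart between 1KO and WT came mostly from these names. Among copies at or above 0.5 FPKM in one or both of the libraries compared, 4 of the 5 largest differences upward were RLTR1B-int copies on each of the 3 days. The others were RMER5 dup235 at day 0, LTRIS2 dup18 at day 2 and LTRIS2 dup33 at day 4. The 5 largest differences downward came from 4 or 5 names at each day and were in copies of low level. At day 4 the copy with the highest WT level among them was RMER5 dup231, a rodent LTR, with 4.43 FPKM in WT and 0.341 in 1KO, or 24 and 2 reads.

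GLN elements, named after the glutamine tRNA that primes their reverse transcription, were higher in the mutant lines for the internal part at all 3 days and for the LTR at days 2 and 4. MMERGLN-int had a mean of 1.28, 2.02 and 1.62 FPKM in WT, 1.54, 2.87 and 2.24 in 1KO, and 1.58, 3.18 and 3.10 in 1KO+1CI. Its means differed by 0.26, 0.49 and 0.45 between 1KO and WT at days 0, 2 and 4, below 2-fold. Read ratios were 1.44 (1.31 to 1.60), 2.09 (1.94 to 2.26) and 2.01 (1.83 to 2.21). They cover the 29 copies with whole reads and leave out MMERGLN-int dup17, so they are not measures of the whole name. The copies behind the mean did not behave alike. MMERGLN-int dup17, which held 38.6% of the summed level, stayed near level between lines, with 18.6, 31.0 and 24.9 FPKM in WT, 19.9, 29.8 and 27.4 in 1KO, and 21.5, 32.2 and 34.2 in 1KO+1CI. Without dup17 the log2 differences of MMERGLN-int between 1KO and WT were 0.83 and 0.67 at days 2 and 4. Of all 32 copies, 16 were at least 2-fold higher in 1KO at day 2 and 16 at day 4, where 13.9% and 17.2% of all listed copies were, with 0 and 1 lower (13.9% and 12.2% of all listed copies). MMERGLN-int dup8 was an example with 0.415, 0.734 and 0.854 FPKM in WT, 1.36, 3.28 and 2.54 in 1KO, and 1.33, 4.41 and 3.98 in 1KO+1CI. It was chosen after the values were seen. In 12 of the 32 copies (37.5%, against 5.04% of all listed copies) the 3 libraries of 1KO lay all above those of WT.

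The GLN LTR, MMERGLN_LTR, had a mean of 0.870, 1.08 and 0.397 FPKM in WT, 0.852, 1.61 and 0.874 in 1KO, and 0.870, 1.74 and 1.22 in 1KO+1CI over 15 copies. The 3 lines were level at day 0 and apart at day 4, where 7 of the 15 copies were at least 2-fold higher in 1KO than in WT and none was lower (17.2% and 12.2% of all listed copies). The read ratio at day 4 was 2.18 (1.57 to 3.08), from 123 and 52 reads.

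VL30 elements are short retrovirus-like sequences without a full set of viral genes that are transcribed in mouse fibroblasts. A pair of their names, MMVL30-int and RLTR6_Mm, had their highest levels at day 0 in all lines. MMVL30-int measured 5.55, 1.38 and 0.646 FPKM in WT, 10.9, 1.63 and 0.836 in 1KO, and 13.9, 2.24 and 1.47 in 1KO+1CI as a mean over 38 copies. Its LTR, RLTR6_Mm, measured 2.68, 0.927 and 0.743 FPKM in WT, 5.19, 1.04 and 0.559 in 1KO, and 5.84, 1.28 and 0.945 in 1KO+1CI over 13 copies. Both were lower at day 4 than at day 0 in every line, by 2.92 (WT), 3.55 (1KO) and 3.15 (1KO+1CI) for MMVL30-int as the size of the log2 difference. At day 0 both were higher in 1KO than in WT, by 0.96 and 0.93. At day 0 all 13 RLTR6_Mm copies and 33 of 38 MMVL30-int copies were higher in 1KO (42.1% of all listed copies were). Of these, 5 and 7 were at least 2-fold higher, where 11.4% of all listed copies were. A single copy, MMVL30-int dup9, held 36.7% of the summed level and measured 59.97, 14.57 and 4.85 FPKM in WT, 157, 21.5 and 9.63 in 1KO, and 212, 33.4 and 23.8 in 1KO+1CI. Without it the day 0 difference of the name was 0.75.

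Genes of the feeder fibroblasts also had their highest summed level at day 0 in each line, but in WT the sum did not fall from day 2 to day 4. Their summed level over the 7 listed of 8 genes was 91.9, 12.3 and 14.3 FPKM in WT, 181, 20.6 and 15.9 in 1KO, and 207, 27.6 and 27.2 in 1KO+1CI, with Lum not listed. Col1a1, the main fibroblast collagen, measured 39.0, 4.17 and 5.07 FPKM in WT, 76.0, 5.63 and 3.76 in 1KO, and 74.4, 9.41 and 9.86 in 1KO+1CI. At day 0 each of the 7 had more RNA in 1KO than in WT, and 4 were at least 2-fold higher, against 5.96% of all genes. Of the 7 ESC markers, only Klf4 was at least 2-fold higher in 1KO at day 0. Klf4 too was highest at day 0 in each line, with 30.3, 2.45 and 0.749 FPKM in WT, 63.1, 4.67 and 1.23 in 1KO, and 67.1, 5.57 and 2.46 in 1KO+1CI. In these bulk libraries more cells of a type and more RNA per cell cannot be told apart, and the part of feeder RNA in the VL30 levels was not tested. RLTR6-int and RLTR6B_Mm, which are also VL30 names, did not move with the fibroblast genes. RLTR6-int stayed between 0.753 and 1.04 FPKM in the 9 libraries and RLTR6B_Mm between 0.719 and 1.02.

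**Figure D5:**
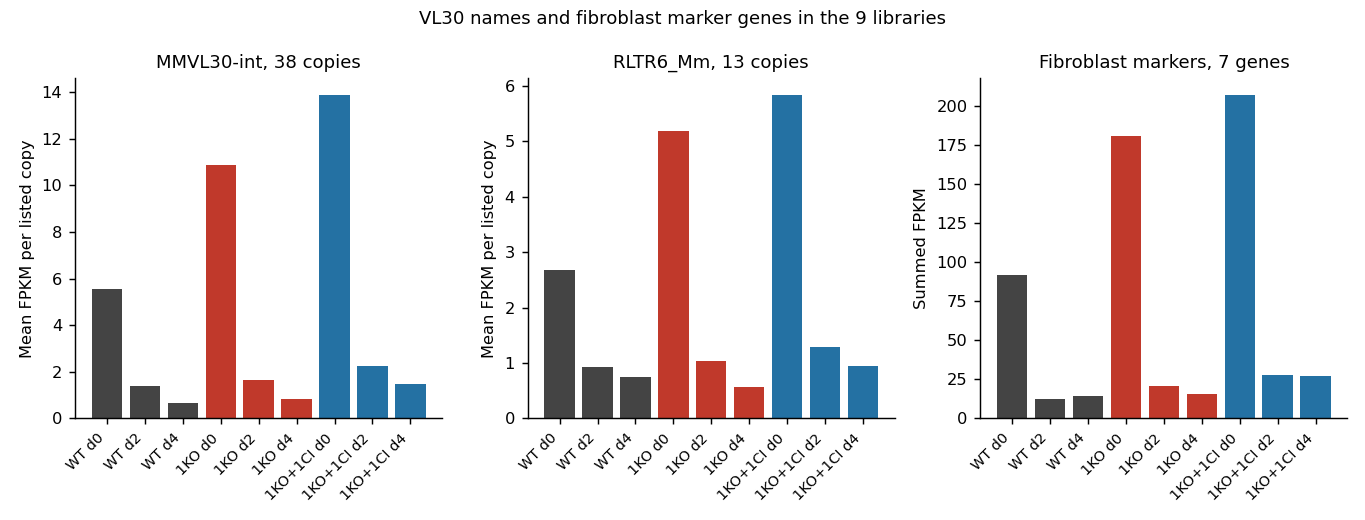
Mean FPKM per listed copy of MMVL30-int and RLTR6_Mm and summed FPKM of 7 fibroblast marker genes in the 9 libraries (WT grey, 1KO red, 1KO+1CI blue, d0 to d4 for the day). All 3 are highest at day 0, and the marker sum at day 0 reached 181 FPKM in 1KO and 207 in 1KO+1CI but 91.9 in WT.

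Copies related to murine leukemia virus had median differences of -0.33, -0.33 and -0.30 between 1KO and WT at days 0, 2 and 4. Of the 39 copies, 7, 2 and 3 were at least 2-fold lower (17.9%, 5.13% and 7.69%, against 19.1%, 13.9% and 12.2% of all listed copies). By the same rule 3, 2 and 2 were higher (7.69%, 5.13% and 5.13%, against 11.4%, 13.9% and 17.2%). Each of these shares was below that of all listed copies. RLTR4_MM-int, an internal part close to murine leukemia virus, had a mean of 2.33, 2.59 and 1.51 FPKM in WT, 1.82, 2.05 and 1.00 in 1KO, and 1.98, 2.00 and 1.08 in 1KO+1CI over 25 copies. At each day both mutant lines lay below WT. The 1KO mean was lower by 0.34, 0.33 and 0.54 on the log2 scale, each under 2-fold. The read ratios were 0.737 (0.688 to 0.789), 0.685 (0.638 to 0.734) and 0.757 (0.688 to 0.833). They cover 24 copies and leave out RLTR4_MM-int dup1, which held 23.4% of the summed level. Of the 25 copies, 15 were lower in 1KO at all 3 days, where 18.4% of all listed copies were, and none was higher at all 3, where 12.4% were. The copy with the highest mean, RLTR4_MM-int dup1, measured 9.18, 12.97 and 10.15 FPKM in WT and 10.6, 15.7 and 4.96 in 1KO, lower only at day 4. Its LTR, RLTR4_Mm, had a mean of 3.07, 3.50 and 1.62 FPKM in WT and 2.80, 2.49 and 1.47 in 1KO over 13 copies, 5 of which were lower in 1KO at all 3 days and 1 higher. Its difference at day 2 was -0.47 for the mean FPKM over copies and -0.60 for the median of the differences of single copies. Taken between the median FPKM of the copies in each library it was 0.46, so its direction depends on how copies are combined.

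One listed copy named MuLV-int was an exception in the same group. It measured 2.09, 0.168 and 0.196 FPKM in WT, 5.20, 1.41 and 0.677 in 1KO, and 5.03, 1.73 and 0.807 in 1KO+1CI. It was the only one of the 85 names whose level was at least 2-fold higher in 1KO than in WT at all 3 days. It rests on 42, 4 and 4 reads in WT and 142, 29 and 15 in 1KO.

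RLTR14-int, an internal part of a rodent element with 51 listed copies, separated the days more than the lines. Its mean was 0.927, 1.11 and 1.21 FPKM in WT, 0.775, 1.35 and 1.53 in 1KO, and 0.927, 1.44 and 1.56 in 1KO+1CI. Between day 0 and day 4, 29 copies were at least 2-fold higher in 1KO and 29 in 1KO+1CI, and 13 were in WT, where 18.8%, 15.1% and 10.8% of all listed copies were. At day 4, 12 copies were at least 2-fold higher in 1KO than in WT (17.2% of all listed copies were) and none was lower.

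RMER21A, a rodent LTR, had means from 4.93 to 6.89 FPKM in the 9 libraries, and 71.1% of its summed level came from RMER21A dup8. LTRIS_Mus, an LTR of the same group as LTRIS2, lay between 1.92 and 2.79 FPKM, and its difference between 1KO and WT at day 4 was -0.01. The level was higher in both mutant lines than in WT at each day for MER34B-int, by 0.57, 0.23 and 0.18 on the log2 scale in 1KO. MER34B-int, named after its values were seen, had only 4 listed copies but high levels, with means of 57.1, 69.9 and 76.0 FPKM in WT, 84.5, 81.8 and 86.4 in 1KO, and 80.8, 86.8 and 91.4 in 1KO+1CI. ERV1 names shared among mammals (MER and LTR names, 55 copies of 30 names) had 0, 2 and 7 copies at least 2-fold higher in 1KO at days 0, 2 and 4, and 7, 7 and 4 lower. Their shares were 0%, 3.64% and 12.7% higher, against 11.4%, 13.9% and 17.2% of all listed copies, and 12.7%, 12.7% and 7.27% lower, against 19.1%, 13.9% and 12.2%. MURVY copies, from a retrovirus amplified on the Y chromosome, numbered 7, with 0, 0 and 1 higher and 2, 2 and 0 lower. Among the 65 names with fewer than 10 copies, 3 were at least 2-fold higher in 1KO at day 0, 3 at day 2 and 6 at day 4, and 7, 2 and 5 were lower. Of these names 23 had 1 listed copy. The share over all listed names was not computed, so no conclusion is drawn from these counts.

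The transgene for catalytically inactive DNMT1 was not accompanied by lower ERV1 levels. At days 0, 2 and 4, 85, 71 and 70 copies were at least 2-fold higher in 1KO+1CI than in 1KO (12.4%, 10.3% and 10.2%, against 16.0%, 11.0% and 10.9% of all listed copies), and 44, 58 and 64 were lower (6.40%, 8.43% and 9.30%, against 9.98%, 10.4% and 13.8%). Each of these 6 shares was below that of all listed copies. The balance depended on the processing, since scaling over all listed repeat copies gave 66 higher and 56 lower at day 0, and at day 4 a pseudocount of 1 FPKM gave 9 and 10 and a 4-fold threshold 6 and 9. No name with 10 or more copies differed 2-fold at any day. RLTR1B-int was higher in 1KO+1CI by 0.42 at day 0 and 0.41 at day 4 and lower by 0.06 at day 2. Its read ratios, over the 32 copies with whole reads, were 1.37 (1.30 to 1.45), 1.38 (1.34 to 1.43) and 0.971 (0.926 to 1.02) in the same order. At day 4, 42 of its 49 copies were higher in 1KO+1CI than in 1KO, where 50.4% of all listed copies were, but only 1 at least 2-fold. LTRIS2 differed by 0.22, 0.16 and 0.42 and MMERGLN-int by 0.03, 0.15 and 0.45, with 31 of 32 MMERGLN-int copies higher at day 4. In 22 ERV1 copies (3.20%, against 3.70% of all listed copies) the 3 libraries of 1KO+1CI lay all above the 3 of 1KO, and in 9 (1.31%, against 3.03%) all below. These comparisons and those of 1KO with WT share the 1KO libraries. Compared with WT, 1KO+1CI had 127, 154 and 210 copies at least 2-fold higher at days 0, 2 and 4 (18.5%, 22.4% and 30.5%, against 14.3%, 14.3% and 15.2% of all listed copies). At all 3 days this held for 45 copies (6.54%, against 1.87% of all listed copies and 7.27% of the LTR class).

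In names with few copies, the single listed MER34A copy was at least 2-fold higher in 1KO+1CI than in 1KO at all 3 days. It measured 1.10, 1.49 and 1.30 FPKM in WT, 0.486, 1.29 and 0.20 in 1KO, and 1.14, 2.76 and 1.79 in 1KO+1CI. The single RLTR30D_MM copy was at least 2-fold lower at all 3 days, with 0.574, 0.763 and 0.944 FPKM in 1KO and 0.225, 0.125 and 0.396 in 1KO+1CI.

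Within each line, day 4 differed from day 0 in both directions. In WT, 53 ERV1 copies (7.70%, against 10.8% of all listed copies) were at least 2-fold higher at day 4 and 172 (25.0%, against 18.7%) lower. In 1KO, 182 (26.5%, against 18.8%) were higher and 136 (19.8%, against 13.7%) lower, and in 1KO+1CI 183 (26.6%, against 15.1%) and 173 (25.1%, against 19.9%), or 177 and 179 with scaling over genes. VL30 names held 50, 58 and 60 of the lower copies in WT, 1KO and 1KO+1CI. RLTR1B-int and LTRIS2 held 74 of the higher copies in 1KO and 77 in 1KO+1CI, and 7 in WT.

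Genes known to silence or methylate these elements were measured in the same libraries. Of 24 regulators, all listed, only Dnmt3l, the cofactor of the de novo methyltransferases, was at least 2-fold higher in 1KO than in WT at day 0 (5.96% of all genes were), with 41.3 FPKM in WT and 203 in 1KO, and only Dnmt1 was at least 2-fold lower (5.19% of all genes were). Besides Dnmt1, Dnmt3a was at least 2-fold lower in 1KO at day 4, with 39.7 FPKM in WT and 18.3 in 1KO, when 2.74% of all genes were lower. Trim28 measured 453, 512 and 414 FPKM in WT, 679, 548 and 384 in 1KO, and 588, 511 and 428 in 1KO+1CI. Setdb1 lay between 23.4 and 34.2 FPKM in the 9 libraries. Zfp809, whose protein binds the proline primer binding site of murine leukemia virus, measured 8.44, 22.0 and 9.43 FPKM in WT, 16.3, 27.4 and 10.7 in 1KO, and 19.3, 30.6 and 14.6 in 1KO+1CI. It was thus higher in both mutant lines than in WT at each day.

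Of 4 receptor genes of gammaretroviruses, Slc7a1, the receptor of ecotropic murine leukemia virus, was just past 2-fold higher in 1KO at day 0. Its difference from WT was 1.01 on the log2 scale, and 5.96% of all genes were at least 2-fold higher. It measured 4.99, 22.5 and 12.2 FPKM in WT, 10.2, 31.1 and 9.98 in 1KO, and 12.4, 26.9 and 15.1 in 1KO+1CI. Xpr1, Slc20a1 and Slc20a2 differed less than 2-fold between 1KO and WT at all 3 days.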

How the data were processed

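A total of 9 poly(A) RNA-seq libraries, 1 for each of WT, 1KO and 1KO+1CI cells at days 0, 2 and 4, were used. Per the labels and the study's methods, the authors used Trim Galore for trimming and HISAT2 with SAMtools for alignment to mm10, and deposited FPKM values per repeat copy and per gene made with analyzeRepeats.pl of HOMER. The sources used here name no tool versions and do not say how multi-mapping reads were counted. The gene and repeat tables were normalized separately. Of the gene table, 15074 genes were used, and 21 entries whose symbol field held no symbol or a date were left out. The members and gene lists were chosen with earlier results of these data known.

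Differences between single libraries were computed in Python 3.11.15 (numpy 2.4.6, pandas 2.3.3, scipy 1.17.1, matplotlib 3.10.9) as log2(FPKM + 0.1). Calls were 2-fold differences, set beside the share over all 38385 listed copies. Names with 10 or more copies were described by the mean FPKM of their copies, and single copies were named when they had the highest mean of their name or one of the 5 largest differences in either direction with at least 0.5 FPKM in 1 library. Names with fewer than 10 copies were named when 2-fold apart in the same direction at all 3 days. MMERGLN-int dup8 and MER34B-int were named outside this rule. No test was run between conditions with 1 library each, and an additive fit of line and day was not run.

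Whole reads were recovered where all 9 values of a copy were multiples of one step after correction for relative depth, within 0.0006 FPKM or 0.3%, and at most 0.15 of a step. Depth was set with 948 genes of 1 transcript that gave a step, of which 554 lay near the most frequent depth, and came to 20400000 to 28100000 reads. Alternatives were pseudocount, scaling, a level filter, the fold for counts of copies, and how copies are combined for names (such as their median FPKM). They were computed for the 2-fold counts over all ERV1 copies and over names and for name differences. Copies without overlap had alternatives for scaling and the level filter only, and the regulator and receptor lists for pseudocount and scaling only. Counts within a name or group, counts at all 3 days and 1KO+1CI against WT were not recomputed. If both mates of a pair were counted, the intervals are too narrow. Recovery and calls were tested on simulated data.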

Additional observations from a re-analysis of the deposited data

Results flagged for a closer look

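Named copies were looked at for opposite differences of at least 2-fold at different days of the same comparison. Of 25 such cases, 6 remained where counting intervals of both differences left out 1 or where whole reads were not recovered. Whether the days differ was not tested, since each condition has 1 library. RLTR1B-int dup15 differed between 1KO and WT by -1.48 and 1.72 on the log2 scale at days 0 and 4. LTR31 dup17 differed in the same comparison by -1.44 and 2.24 at days 2 and 4, and RMER5 dup230 by -1.78 and 1.57 at days 0 and 2. Between 1KO+1CI and 1KO, LTRIS2 dup18 differed by -1.30 and 2.02 at days 2 and 0, RMER5 dup71 by -1.64 and 2.56 at days 0 and 2, and RodERV21-int dup104 by -2.06 and 1.79 at days 2 and 0. Apart from RLTR1B-int dup15, these copies stayed below 4 FPKM in every library.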

How the results depend on the processing

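No result comes from a test and the labels give no replicate numbers, so there was no replicate block to fit. An additive fit of line and day, which would pair the lines by day, was not run. Counts of copies and names kept within 1.5 times of the reported value in 216 of 264 recomputations. Counts of names that were 0 in both were taken as kept, which raises that number. Which direction held more copies turned for 1KO against WT at day 0, for 1KO+1CI against 1KO at day 4 and for day 4 against day 0 in 1KO+1CI under at least 1 alternative. With a pseudocount of 1 FPKM, fewer copies passed 2-fold. For 1KO against WT there were 31 higher and 15 lower at day 0, 52 and 15 at day 2, and 82 and 11 at day 4. For 1KO+1CI against 1KO there were 6 and 2, 8 and 2, and 9 and 10. For day 4 against day 0 there were 5 and 59 in WT, 85 and 68 in 1KO, and 95 and 75 in 1KO+1CI. With a 4-fold threshold, the counts for 1KO against WT were 14 and 20, 41 and 10, and 57 and 10, for 1KO+1CI against 1KO 11 and 2, 4 and 1, and 6 and 9, and for day 4 against day 0 7 and 50, 69 and 66, and 70 and 69. With a pseudocount of 0.01 FPKM, 106 copies were higher in 1KO+1CI than in 1KO at day 4. Among the 20 names, those past 2-fold in 1KO against WT at day 0 were 2 with scaling over repeat copies, 1 with the median over copies and 1 with whole reads, at day 2 they were 3 with the median, 1 without the top copy and 2 with whole reads, and at day 4 they were 4 with whole reads. With the median, 1 name was higher in 1KO+1CI than in 1KO at day 4. Between day 0 and day 4, 4 names were lower in WT with whole reads, and 5 (median) or 4 (without the top copy) were higher in 1KO+1CI. The 12 name differences past 2-fold stayed past it, in the same direction, in all 96 recomputations, while 111 of 1440 recomputed name differences had the opposite sign. RLTR4_MM-int stayed lower in 1KO than in WT in all of its recomputations, between -0.67 and -0.19 at day 0. The causes of these changes were not tested. Alternatives for the copies without overlap and for the gene lists were chosen after seeing the data. Depth limits the low copies, since 185 copies had 1 read in some library.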
